A study of Mus musculus with 35 samples.

Results

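The genes described here are 9 parts of the transforming growth factor beta (TGF-beta) system in mouse skin wounds. They are the ligands Tgfb1, Tgfb2 and Tgfb3, the latency proteins Ltbp1 and Ltbp2, the receptors Tgfbr1, Tgfbr2 and Tgfbr3, and the inhibitor Smad7. They were picked out by gene symbol, 9 of the 22830 symbols with counts in both deposited tables, by a rule that names no measured value. These genes, and the pathway lists read further below, were chosen with earlier results of these data known. The shares of all genes set beside their counts are therefore descriptions and no independent test. All 9 passed the filter on low counts in every comparison.

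TGF-beta is secreted in a form that cannot signal. The mature dimer stays wrapped in its own cleaved propeptide, and a latent TGF-beta binding protein ties this complex to fibrillin microfibrils in the matrix. Integrins that pull on the propeptide, or proteases that cut it, release the ligand, which binds the type II receptor and brings in the type I receptor to phosphorylate SMAD proteins. In healing skin this system drives fibroblasts to make collagen and to contract, and it restrains the growth of keratinocytes and the activity of leukocytes.

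Wounds were taken from C57BL/6 mice of 8 to 12 weeks with both Col5a1 alleles floxed. Col5a1CKO animals also carried Col1a2CreERT, a tamoxifen-inducible Cre under a Col1a2 enhancer, so the deletion is aimed at fibroblasts and not at every cell of the wound. WT animals were Cre-negative littermates, and both genotypes received tamoxifen. At day 14 there were 7 WT wounds, 7 Col5a1CKO wounds and 3 Col5a1CKO wounds that had been injected with fibroblasts from WT skin, whose RNA is then part of the sample. The paper's captions list 7 wounds of each genotype beside the injected ones as given vehicle, which the sample titles do not name. Another caption lists 4 wounds of each genotype at day 14 and names no vehicle. Whether those are among the 7 is not given. Day 19 had 3 wounds of each genotype. A separate cohort at day 14 held 4 WT wounds with vehicle, 4 Col5a1CKO wounds with vehicle and 4 Col5a1CKO wounds with cilengitide at 20 mg/kg. Cilengitide is a cyclic peptide with an Arg-Gly-Asp motif that blocks the integrin αvβ3. The deposited characteristics name WT fibroblasts for the Col5a1CKO wounds of day 19, whereas the sample titles place them at day 14, and the titles were followed.

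Each wound had 15043531 to 35700325 counts in the first table (23 wounds) and 51211600 to 68266760 in the cilengitide cohort (12 wounds). The 23 libraries of the first table fell into 2 sets by the balance of GC-rich against GC-poor genes, and the sets lay 1.61 log2 units apart, where the next widest step was 0.33. The lower set held WT wounds a to d and Col5a1CKO wounds a to e of day 14, and the upper set held WT wounds e to g, Col5a1CKO wounds f and g, the fibroblast-injected wounds and all wounds of day 19. WT wounds of day 14 in the upper set had RNA of Y-linked genes, while the Col5a1CKO wounds of both days and the fibroblast-injected wounds had Xist, so sex and genotype cannot be told apart at day 14 in that set. Of the WT wounds of day 19, 1 had Y-linked RNA and 2 had Xist. In the lower set WT wounds a and b and Col5a1CKO wounds a to d had Y-linked RNA, and the others had Xist. The paper's captions list both sexes among the Col5a1CKO wounds of day 19 and the injected wounds, where all had Xist. In the cilengitide cohort, Col5a1CKO vehicle wound 2 had neither kind of RNA and the 3 others of its group had Y-linked RNA. The WT vehicle group and the cilengitide group each had 2 wounds with Y-linked RNA and 2 with Xist. Sex was thus not balanced in the comparisons with Col5a1CKO vehicle wounds, with injected wounds, at day 19 or between the days. The same held within each library set of day 14. The part of sex was not tested.

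Col5a1 (NM_015734), the targeted gene, ranged at day 14 from 345 to 2404 CPM in WT wounds (median 851) and from 171 to 667 CPM in Col5a1CKO wounds (median 369), where CPM are counts scaled to library size after TMM normalisation. The log2 fold change was -1.43 (SE 0.49, adjusted p = 0.0757 from edgeR), and the groups overlapped. Within the lower library set it was -1.87 (adjusted p = 0.0273) and the groups did not overlap, and within the upper set it was -0.23 (adjusted p = 0.524). In the other pairs of groups Col5a1 also overlapped, with 514 to 5409 CPM in WT against 614 to 1089 CPM in Col5a1CKO wounds at day 19, and 449 to 2627 against 256 to 1321 CPM with vehicle. These counts run over all exons and do not isolate the deleted part.

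The ligand genes differ in the short stretch of propeptide that αv integrins read, which is shown because cilengitide carries the same tripeptide. Tgfb1 (NM_011577) lies at chr7:26472021-26490096 on the plus strand of mm9, Tgfb2 (NM_009367) at chr1:188447065-188529871 on the minus strand and Tgfb3 (NM_009368) at chr12:87397694-87419991 on the minus strand. The coding bases below are from the GENCODE transcripts of mm9, with 8 codons on either side. Capitals mark the Arg-Gly-Asp codons in Tgfb1 (codons 244 to 246 of 390, in exons 4 and 5 of 7) and Tgfb3 (codons 261 to 263 of 412, in exon 5 of 7). In Tgfb2 they mark the 3 codons aligned with them (codons 261 to 263 of 414, in exon 5 of 7). No Arg-Gly-Asp codons occur in frame in Tgfb2.
Tgfb1: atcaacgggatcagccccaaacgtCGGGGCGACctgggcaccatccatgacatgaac
Tgfb2: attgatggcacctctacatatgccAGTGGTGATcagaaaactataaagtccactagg
Tgfb3: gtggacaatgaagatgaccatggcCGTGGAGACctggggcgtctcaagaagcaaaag
The stretches span chr7:26482008-26482193 (with an intron between the exons), chr1:188454608-188454664 and chr12:87403091-87403147. Over their aligned lengths the encoded precursors were 50.3% identical between Tgfb1 and Tgfb2, 50.5% between Tgfb1 and Tgfb3, and 57.1% between Tgfb2 and Tgfb3.

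Upstream sequence is shown for the ligand genes that were higher in Col5a1CKO wounds of both cohorts. The windows run from 250 to 51 bases before the RefSeq start (GRCm38.p6), at chr7:25686752-25686951 for Tgfb1 (plus strand) and chr1:186706040-186706239 for Tgfb2 (minus strand). Capitals mark matches to a GC box (GGGCGG) or a SMAD element (CAGAC) on either strand.
Tgfb1: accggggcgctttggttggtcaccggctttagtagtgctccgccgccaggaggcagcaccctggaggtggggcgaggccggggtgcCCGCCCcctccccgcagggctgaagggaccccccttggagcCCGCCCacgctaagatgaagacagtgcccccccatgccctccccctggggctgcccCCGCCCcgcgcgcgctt
Tgfb2: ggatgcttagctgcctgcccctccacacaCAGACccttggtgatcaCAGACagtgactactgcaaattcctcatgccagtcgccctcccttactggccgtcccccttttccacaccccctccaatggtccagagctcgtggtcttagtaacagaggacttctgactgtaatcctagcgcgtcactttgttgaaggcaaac
The Tgfb1 window held 3 GC boxes and no SMAD element, and its GC content was 74.0%. The Tgfb2 window held 2 SMAD elements and no GC box, and its GC content was 54.5%. Of 32851 windows of this length in the RefSeq table, 24.6% held a GC box and 35.8% a SMAD element, and the median GC content was 51.5%. An AP-1 element (TGANTCA, in 5.57% of all windows) and a CRE (TGACGTCA, in 0.828%) were also searched on both strands. Neither was found in these 2 windows. Windows were read for 6 of the 9 genes, and among the other 4 genes (Tgfbr1, Tgfbr2, Ltbp1 and Ltbp2) the CRE was found in 1 window of Ltbp1 and the AP-1 element in none. The marked matches overlapped no other motif searched.

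At day 14 Col5a1CKO wounds held more RNA of all 3 ligands, both latency proteins and the co-receptor Tgfbr3 than WT wounds. These 6 of the 9 genes were called higher in Col5a1CKO than in WT wounds and 0 lower, where 5.57% of the 14367 genes tested were called higher and 2.71% lower (adjusted p under 0.05 and at least 2-fold, edgeR, 7 against 7). The median log2 fold change of the 9 genes was 1.54, beside -0.032 over all genes tested. The signalling receptors Tgfbr1 and Tgfbr2 and the inhibitor Smad7 did not pass the test, with positive estimates of 0.66, 0.60 and 0.46. In a bulk sample, more RNA per cell and more cells that make it cannot be told apart.

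Tgfb1, the ligand made by most wound leukocytes and by platelets, was 11.7, 15.8, 45.2 and 46.4 CPM in WT wounds a to d and 64.0, 61.8 and 59.6 CPM in WT wounds e to g. In Col5a1CKO wounds a to e it was 147, 76.8, 109, 52.6 and 71.4 CPM, and in wounds f and g it was 267 and 135 CPM. The groups overlapped over all 14 wounds but not within either library set. The log2 fold change was 1.54 (SE 0.43, adjusted p = 0.0358), with 1.62 (adjusted p = 0.0563) in the lower set and 1.80 (adjusted p = 0.042) in the upper set. The call was lost when WT wound b or d or Col5a1CKO wound a, c or f was left out (adjusted p 0.0536 to 0.0826).

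Tgfb2, the ligand that depends on betaglycan to bind the type II receptor, was 8.09, 4.84, 23.5 and 28.9 CPM in WT wounds a to d and 11.9, 12.2 and 17.5 CPM in e to g. In the Col5a1CKO wounds it was 82.3, 56.5, 79.9, 37.9, 97.1, 50.0 and 32.5 CPM from a to g. Every Col5a1CKO wound was above every WT wound, as was so for 2 of the 9 genes (Tgfb2 and Ltbp2) and for 2.31% of all genes tested. The log2 fold change was 2.04 (SE 0.38, adjusted p = 0.00675), and the call held in each of the 14 fits that left out a wound. Among the WT wounds of the lower set, a and b had Y-linked RNA and c and d had Xist, and Tgfb1 and Tgfb2 were both lower in a and b than in c and d.

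Tgfb3, which shares its receptors with the other ligands, was 11.3, 44.6, 35.0, 47.9, 18.2, 14.1 and 27.2 CPM in WT wounds a to g. In the Col5a1CKO wounds it was 41.9, 73.0, 55.5, 45.3, 69.0, 68.4 and 52.2 CPM. The highest WT wounds (b and d) lay among the lowest Col5a1CKO wounds. With a log2 fold change of 1.04 (SE 0.32, adjusted p = 0.0488), Tgfb3 stood at the edge of the threshold. Its call held in 4 of the 14 fits that left out a wound, those without WT wound b or d or Col5a1CKO wound d or g, and the 10 others gave adjusted p from 0.0520 to 0.0965. Within the lower library set it was 0.71 (adjusted p = 0.248), and within the upper set 1.69 (adjusted p = 0.0477).

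**Figure D1:**
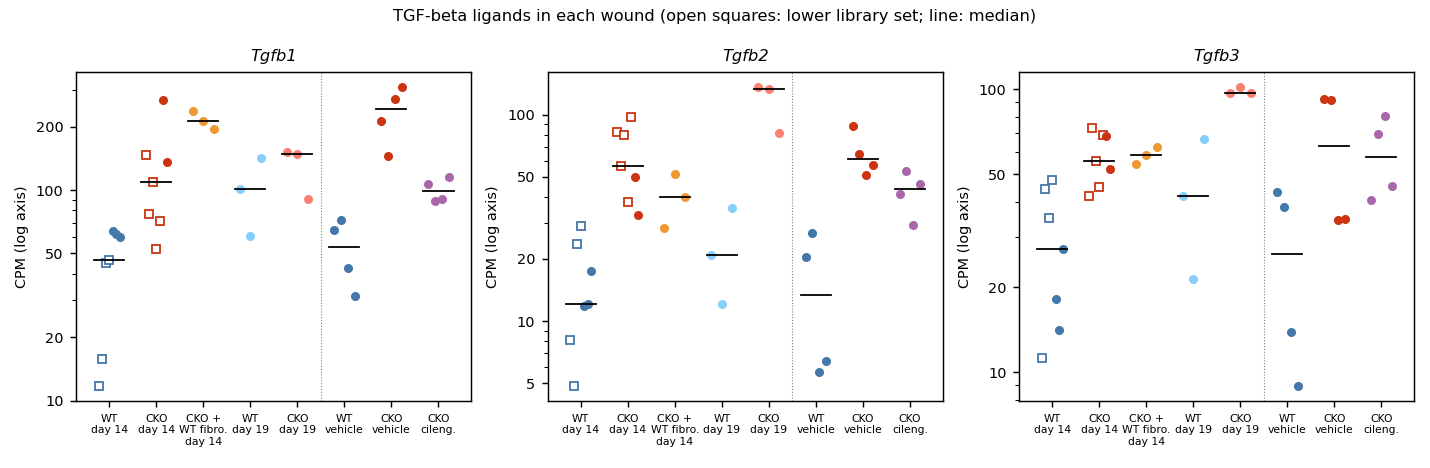
Level of each TGF-beta ligand in every wound, in CPM on a log axis, by group (CKO is Col5a1CKO, fibro. fibroblasts, cileng. cilengitide). Each point is 1 wound, open squares are the lower library set, lines are medians, and the dotted line parts the separately normalised cohorts. Tgfb2 at day 14 lies between 4.84 and 28.9 CPM in WT and between 32.5 and 97.1 CPM in Col5a1CKO wounds.

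Among the genes chosen here, Ltbp2 gave the largest log2 fold change between the genotypes at day 14. The change in Ltbp1 was smaller than that in Tgfb2, so the large difference belonged to Ltbp2 alone. Ltbp2 (NM_013589, chr12:86124162-86217482, minus strand) encodes a microfibril protein that, unlike its relatives, is not known to bind the latent ligand. It was nearly absent from WT wounds at day 14, with 2, 0, 4, 24, 15, 32 and 89 reads in wounds a to g, or 0 to 3.65 CPM. The 0 reads of wound b allow a level of up to 0.208 CPM, which is 3 counts and covers counting error only. In the Col5a1CKO wounds it had 251 to 1055 reads, or 12.5 to 53.0 CPM with a median of 30.9. No wound of one genotype came near the other. The log2 fold change was 4.85 (SE 0.80, adjusted p = 0.00489), and its size depends on the few WT reads, with 6.10 in the lower set and 3.68 in the upper set (adjusted p = 0.00952 and 0.0624).

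Ltbp1 (NM_019919, chr17:75404908-75791852, plus strand) encodes the protein that holds most latent TGF-beta in the matrix. It was 57.5, 71.4, 46.1 and 56.0 CPM in WT wounds a to d and 11.4, 12.2 and 15.6 CPM in e to g. In Col5a1CKO wounds a to e it was 152, 194, 114, 99.7 and 218 CPM, and in f and g 82.5 and 45.8 CPM. Both genotypes were lower in the upper library set, and within each set the genotypes did not overlap. The log2 fold change was 1.72 (SE 0.48, adjusted p = 0.0322) over all wounds, 1.41 (adjusted p = 0.0111) in the lower set and 2.39 (adjusted p = 0.0369) in the upper set. Leaving out WT wound e, f or g or Col5a1CKO wound a, b, c or e gave adjusted p from 0.0528 to 0.0681.

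Among the receptors only the co-receptor was called. Tgfbr3 (NM_011578, chr5:107535589-107718648, minus strand), or betaglycan, presents ligand, TGF-beta 2 above all, to the signalling receptors. It was 18.7 to 78.1 CPM in WT (median 35.3) and 45.8 to 193 CPM in Col5a1CKO wounds (median 118), with a log2 fold change of 1.56 (SE 0.38, adjusted p = 0.0189). Only Col5a1CKO wound g, at 45.8 CPM, lay inside the WT range. The call held in each of the 14 fits that left out a wound.

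Tgfbr1 (NM_009370, chr4:47366094-47427803, plus strand), the type I receptor kinase, was 56.7, 79.3, 77.0 and 72.3 CPM in WT wounds a to d and 34.5, 29.2 and 35.9 CPM in e to g. It was 126, 104, 106, 88.0 and 92.2 CPM in Col5a1CKO wounds a to e and 48.3 and 46.8 CPM in f and g. All Col5a1CKO wounds exceeded the WT wounds of their own library set, while over all wounds the log2 fold change was 0.66 (SE 0.30, adjusted p = 0.165). With a covariate for the library set it was 0.53 (SE 0.12, adjusted p = 0.00758), below 2-fold. Tgfbr2 (NM_009371, chr9:115993415-116084383, minus strand), the ligand-binding type II receptor, ranged from 133 to 298 CPM in WT wounds and from 206 to 658 CPM in Col5a1CKO wounds, where 658 CPM in wound b stood apart from 206 to 311 CPM in the others. Its log2 fold change was 0.60 (SE 0.27, adjusted p = 0.172).

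Smad7 (NM_001042660, chr18:75527183-75555589, plus strand) is switched on by the pathway and blocks its receptors. It was 5.57 to 34.7 CPM in WT (median 9.53) and 9.13 to 35.1 CPM in Col5a1CKO wounds (median 18.2). In both genotypes the highest values were in the upper library set, and the log2 fold change was 0.46 (SE 0.45, adjusted p = 0.531). With a covariate for the library set it was 0.81 (adjusted p = 0.0489), below 2-fold.

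Within both library sets, 6 of the 9 genes (Tgfb1, Tgfb2, Tgfbr1, Tgfbr3, Ltbp1 and Ltbp2) had every Col5a1CKO wound above every WT wound of the set, beside 5.01% of all genes tested. With that covariate 6 of the 9 were called, beside 9.28% of 15244 genes called higher. Each of the 9 estimates was positive in both sets. Leukocyte markers parted by genotype and the other marker sums overlapped. The 3 leukocyte markers summed to 153 to 286 CPM in WT wounds and to 362 to 1489 CPM with the deletion, and the 6 keratinocyte markers to 8979 to 47766 and 15.6 to 23816 CPM. The 5 endothelial markers summed to 64.9 to 247 and 219 to 535 CPM, the 4 platelet markers to 19.6 to 136 and 78.3 to 604 CPM (Gp9 was under 1 CPM in all Col5a1CKO wounds), and the 5 fibroblast markers to 295 to 5736 and 1137 to 6617 CPM with medians of 4808 and 4237 CPM. The part of these cells in the differences was not tested.

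**Figure D2:**
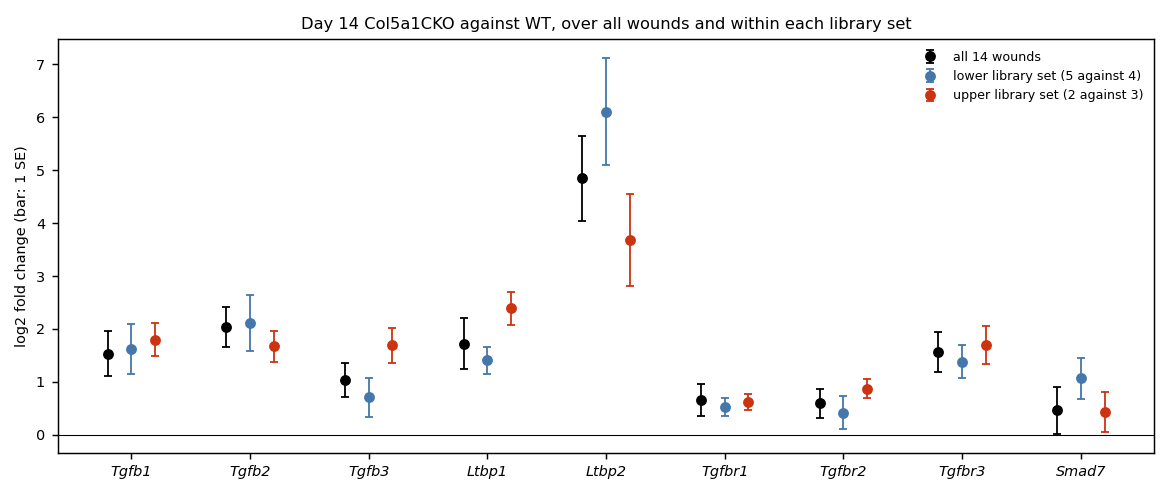
Log2 fold change between Col5a1CKO and WT wounds at day 14 for each gene, fitted over all 14 wounds (black), the lower library set (blue, 5 against 4) and the upper set (red, 2 against 3), with bars of 1 SE. All 27 estimates lie above 0, from 0.42 to 6.10 (Ltbp2, lower set).

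**Figure D3:**
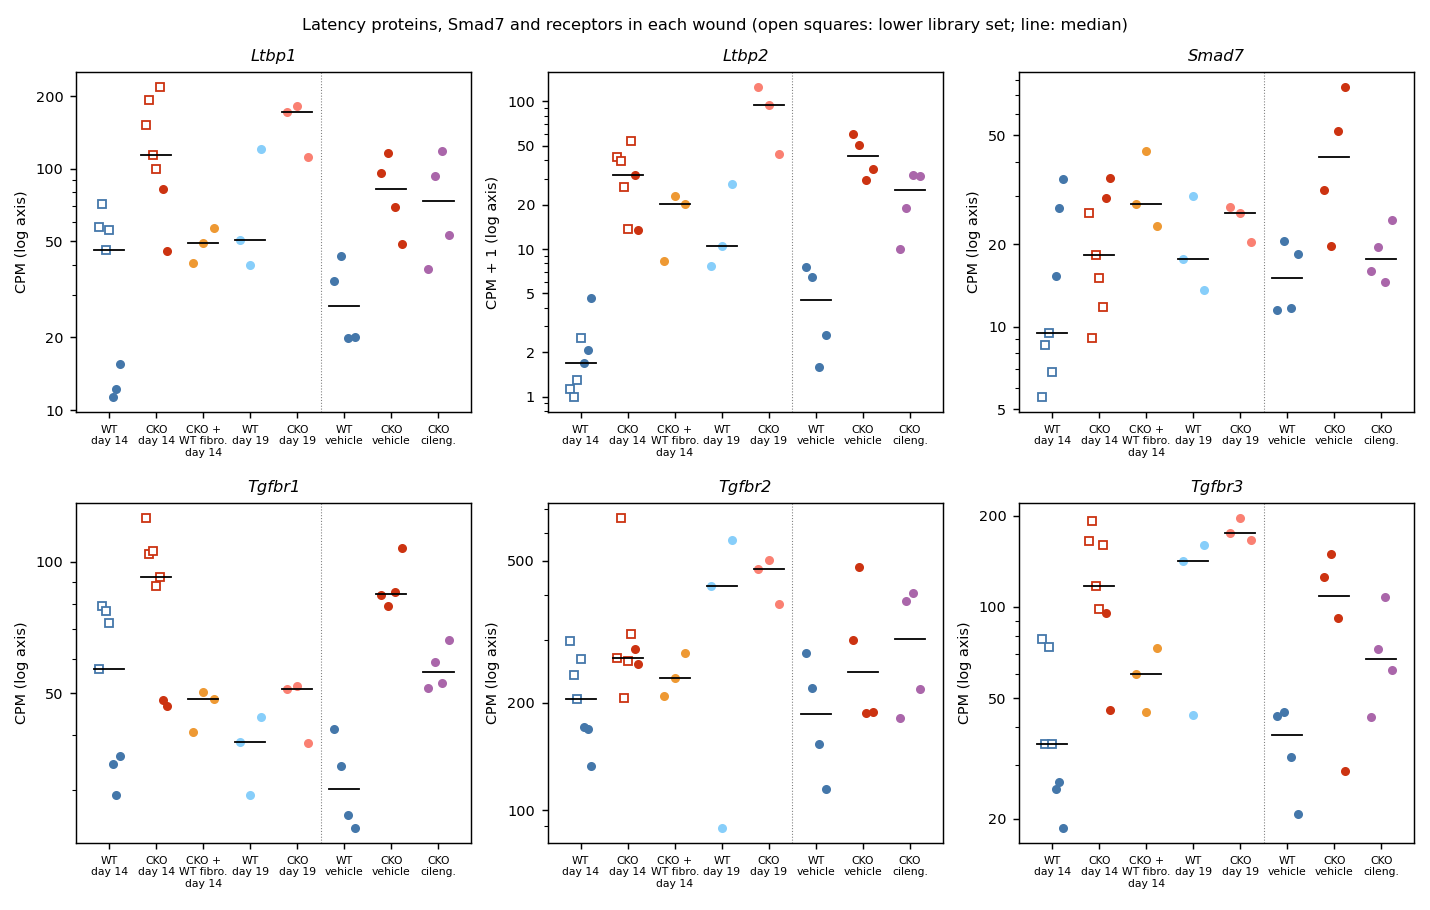
Level of the latency proteins, Smad7 and the receptors in every wound, by group, in CPM on a log axis (Ltbp2 as CPM + 1). Each point is 1 wound, open squares are the lower library set and lines are medians. Ltbp2 at day 14 is at most 3.65 CPM in WT and at least 12.5 CPM in Col5a1CKO wounds.

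At day 19 all 9 estimates were again positive, and none passed the test. Here 0 of the 9 genes were called and 0.0198% of 15135 genes were called higher and 0.0% lower (edgeR, 3 against 3), while 3 of the 9 (Tgfb2, Tgfb3 and Ltbp2) had an unadjusted p under 0.05, as did 11.8% of all genes in that direction. DESeq2 called 2 of them, Tgfb2 and Ltbp2, and 3.74% of its 18931 genes higher. Tgfb2 was 20.9, 12.1 and 35.3 CPM in WT and 137, 133 and 81.4 CPM in Col5a1CKO wounds (log2 fold change 2.41, SE 0.48, adjusted p = 0.11). Ltbp2 was 6.61, 9.54 and 26.5 CPM in WT and 123, 93.2 and 43.0 CPM in Col5a1CKO wounds (2.66, SE 0.69, adjusted p = 0.132). Tgfb3 was 41.9, 21.3 and 66.7 CPM in WT and 97.1, 102 and 96.5 CPM in Col5a1CKO wounds (1.23, SE 0.44, adjusted p = 0.176). In these 3 genes and in Tgfbr3 the groups did not overlap, 4 of 9 genes, beside 16.4% of all genes tested. For Tgfbr3 this held after TMM scaling and not by library size alone. Without WT wound c, which had the highest WT values of all 3 ligands and of both latency proteins, Tgfb2 (2.89), Ltbp1 (1.85) and Ltbp2 (3.50) were called (adjusted p 0.0364 to 0.0413). Calls rose over all genes in that fit, to 412 higher and 600 lower of 15468 genes.

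Tgfb1, in contrast to Tgfb2, overlapped at day 19, with 102, 60.2 and 141 CPM in WT and 152, 148 and 90.6 CPM in Col5a1CKO wounds (0.42, SE 0.40, adjusted p = 0.529). Tgfbr1 (0.40), Tgfbr2 (0.35) and Smad7 (0.35) also overlapped. The genotype effect was compared between the days in a fit of 20 wounds. None of the 9 genes passed (adjusted p of at least 0.892, edgeR, beside 0.0% of 15954 genes called in either direction, with 0 at an unadjusted p under 0.05 beside 5.88% of all genes, and 0 called by DESeq2 beside 0.215%), so no change of the effect was shown. The differences ran from -2.20 (SE 1.15) for Ltbp2 and -1.14 (SE 0.73) for Tgfb1 to 0.35 (SE 0.64) for Tgfb2. Marker sums overlapped at day 19 for leukocytes (79.1 to 616 CPM in WT wounds and 142 to 527 CPM with the deletion) and did not for fibroblasts (325 to 1955 and 2126 to 2924 CPM) and endothelium (264 to 585 and 649 to 1048 CPM).

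Between the days none of the 9 genes was called in either genotype, beside 1.5% of 15180 genes called higher in WT and 1.87% of 15327 in Col5a1CKO wounds, with 4.25% and 3.85% called lower. At an unadjusted p under 0.05 the count was 3 in WT, all higher, beside 8.48% of all genes higher, and 4 in Col5a1CKO wounds, 3 of them higher, beside 27.1% in either direction. DESeq2 called 2 in WT (Tgfbr3 and Ltbp2), beside 3.93% of its genes higher, and 1 in Col5a1CKO wounds (Ltbp2), beside 2.7%. These comparisons share their day 14 wounds with the genotype comparison. In the upper library set alone, which holds all day 19 wounds, the WT estimates were 2.59 for Ltbp1 (adjusted p = 0.0141), 3.14 for Ltbp2 (adjusted p = 0.0359) and 2.46 for Tgfbr3 (adjusted p = 0.0187), where 14.2% of all genes were called higher. In Col5a1CKO wounds Tgfb3 rose by 0.76 (SE 0.20, adjusted p = 0.0446), below 2-fold, and without the limit on fold 2.71% of all genes were higher. Its range moved from 41.9 to 73.0 CPM up to 96.5 to 102 CPM without overlap, as was so for 7.66% of all genes.

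The vehicle wounds of the cilengitide cohort gave the genotype comparison in other animals. In this cohort 7 of the 9 genes were called higher in Col5a1CKO than in WT wounds and 0 lower, beside 17.5% of 15434 genes called higher and 13.4% lower (edgeR, 4 against 4). The median log2 fold change of the 9 genes was 1.45, and over all genes it was 0.024. Tgfb1, Tgfb2, Tgfbr3, Ltbp1 and Ltbp2 were called in both cohorts. Tgfbr1 and Smad7 were called with vehicle and not at day 14 in the first cohort, and Tgfb3 the other way round, and the cohorts were not tested against each other.

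Tgfb1 was 64.9, 71.9, 42.4 and 31.2 CPM in WT and 214, 145, 271 and 309 CPM in Col5a1CKO vehicle wounds, a log2 fold change of 2.11 (SE 0.34, adjusted p = 0.00234). Tgfb2 was 20.4, 26.8, 5.68 and 6.40 CPM in WT and 88.7, 64.7, 51.3 and 57.2 CPM in Col5a1CKO wounds (2.10, SE 0.54, adjusted p = 0.0143). Every Col5a1CKO wound exceeded every WT wound for both. Tgfb3 was 43.2, 38.3, 13.9 and 8.96 CPM in WT and 92.2, 91.2, 34.6 and 34.9 CPM in Col5a1CKO wounds, which overlapped, and did not pass (1.24, SE 0.60, adjusted p = 0.118).

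Ltbp2 was 6.60, 5.41, 0.575 and 1.61 CPM in WT and 59.1, 49.9, 28.5 and 33.7 CPM in Col5a1CKO vehicle wounds (3.55, SE 0.74, adjusted p = 0.00653). Ltbp1 was 34.2, 43.6, 19.9 and 20.1 CPM in WT and 96.1, 117, 69.6 and 48.8 CPM in Col5a1CKO wounds (1.45, SE 0.37, adjusted p = 0.0136). Neither gene overlapped. WT vehicle wounds 3 and 4 had less Tgfb2, Tgfb3, Ltbp1 and Ltbp2 than wounds 1 and 2, and the same wounds had less Col5a1, with 466 and 449 CPM against 2627 and 2539 CPM.

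Tgfbr1 was 41.4, 34.0, 26.2 and 24.6 CPM in WT and 83.9, 79.4, 85.3 and 108 CPM in Col5a1CKO vehicle wounds (1.45, SE 0.19, adjusted p = 0.00129), the smallest adjusted p of the 9 genes. Smad7 was 11.6, 20.5, 11.7 and 18.4 CPM in WT and 31.5, 19.8, 52.1 and 74.9 CPM in Col5a1CKO wounds (1.47, SE 0.42, adjusted p = 0.0218), and overlapped through Col5a1CKO wound 2. Tgfbr3 was 43.7, 45.0, 32.0 and 20.8 CPM in WT and 125, 149, 92.1 and 28.6 CPM in Col5a1CKO wounds (1.45, SE 0.49, adjusted p = 0.0425), and overlapped through Col5a1CKO wound 4. Tgfbr2 did not pass (0.56, SE 0.40, adjusted p = 0.269). The groups did not overlap for 5 of the 9 genes, beside 24.1% of all genes tested.

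Leaving out a wound ended the Tgfbr3 call in 7 of 8 fits (adjusted p 0.0608 to 0.109), all but the one without Col5a1CKO wound 4, and the Smad7 call without WT wound 1 or 3 (adjusted p 0.0534 and 0.0616). The leukocyte markers summed to 104 to 209 CPM in the WT and 796 to 2325 CPM in the Col5a1CKO vehicle wounds, and the macrophage markers (5 genes) to 273 to 1023 and 2753 to 4329 CPM. Keratinocyte markers summed to 14227 to 22351 and 55.1 to 11032 CPM, and platelet markers to 10.9 to 20.5 and 85.8 to 463 CPM. Endothelial markers summed to 50.2 to 348 and 354 to 844 CPM without overlap, and fibroblast markers to 236 to 1099 and 724 to 3754 CPM with overlap. The balance of GC-rich against GC-poor genes was also lower in the Col5a1CKO vehicle wounds (-0.523 to -0.297 on the log2 scale) than in the WT vehicle wounds (0.0306 to 0.122). The part of these differences in the gene levels was not tested.

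**Figure D4:**
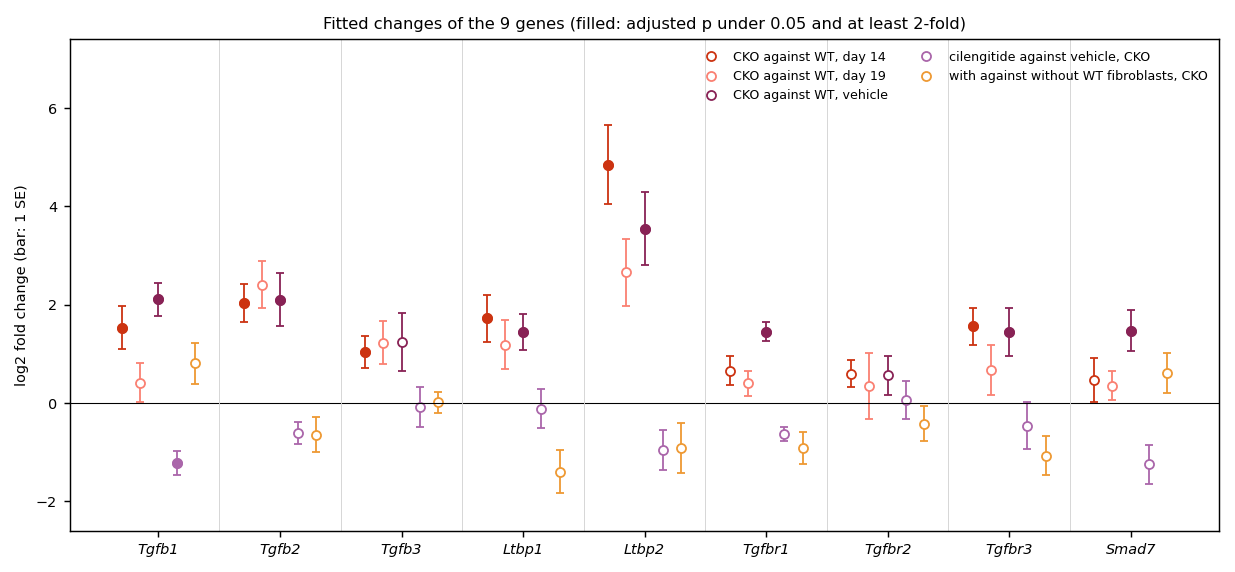
Log2 fold change of each gene in 5 comparisons, with bars of 1 SE, filled where the adjusted p is under 0.05 with at least 2-fold change (edgeR). In the 3 comparisons of Col5a1CKO with WT wounds every point lies above 0, and with cilengitide the filled point is Tgfb1 at -1.22.

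With cilengitide, Tgfb1 fell in Col5a1CKO wounds and was the only one of the 9 genes called, beside 6.59% of 15563 genes called lower and 6.48% higher (edgeR, 4 against 4). It was 107, 88.9, 90.7 and 116 CPM with cilengitide, below each of the 145 to 309 CPM of the vehicle wounds, and above each of the 31.2 to 71.9 CPM of the WT vehicle wounds. The log2 fold change was -1.22 (SE 0.24, adjusted p = 0.0133), and the call held in each of the 8 fits that left out a wound. Of the 9 estimates 8 were negative, with a median of -0.61 beside -0.061 over all genes.

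Tgfbr1 was 51.5, 59.0, 52.7 and 66.1 CPM with cilengitide, below the 79.4 to 108 CPM with vehicle, and fell by 0.63 on the log2 scale (SE 0.14, adjusted p = 0.0184), less than 2-fold. Without the limit on fold 12.2% of all genes were lower. Tgfb1 and Tgfbr1 did not overlap between the treatments, 2 of the 9 genes, beside 13.4% of all genes that were lower in this way. Smad7 was 15.9, 19.5, 14.6 and 24.6 CPM with cilengitide (-1.25, SE 0.40, adjusted p = 0.0553). It was called by DESeq2 (adjusted p = 0.0135), and by edgeR without Col5a1CKO vehicle wound 2, which had the lowest vehicle level (adjusted p = 0.0168).

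The sample titles of this cohort carry numbers in short runs that cross the groups, and no label says what a run shares. In the run with Col5a1CKO vehicle wounds 3 and 4 and cilengitide wounds 2 and 3, Tgfb1 was 271 and 309 CPM with vehicle and 88.9 and 90.7 CPM with cilengitide, while Tgfb3 was 34.6 and 34.9 CPM and 69.7 and 80.3 CPM. In the run with Col5a1CKO vehicle wound 2 and WT vehicle wounds 3 and 4, Tgfb1 was 145 CPM beside 42.4 and 31.2 CPM, and Ltbp2 49.9 CPM beside 0.575 and 1.61 CPM. For Tgfb1 and Ltbp2 these groups did not overlap over the cohort, so any subset of the wounds must show the same direction. The runs therefore add nothing to those 2 differences. Tgfb3 was higher with cilengitide within its run.

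The other ligands and the latency proteins did not pass. Tgfb2 was 41.4, 53.3, 29.3 and 46.4 CPM with cilengitide (-0.61, SE 0.23, adjusted p = 0.0858), and Tgfb3 was 40.5, 69.7, 80.3 and 45.5 CPM (-0.089, SE 0.41, adjusted p = 0.892). Ltbp1 was 38.3, 93.6, 118 and 53.2 CPM (-0.12, SE 0.40, adjusted p = 0.851) and Ltbp2 8.93, 18.0, 30.8 and 30.1 CPM (-0.95, SE 0.41, adjusted p = 0.121). Tgfb1 and Tgfb3, the ligands with the Arg-Gly-Asp codons printed above, thus had fold changes of -1.22 and -0.089, and the difference between the genes was not tested. With cilengitide the leukocyte markers summed to 319 to 565 CPM and the macrophage markers to 1291 to 1537 CPM, both below the vehicle wounds, and keratinocyte markers to 17226 to 28569 CPM, above them. Their part in the Tgfb1 change was not tested.

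Against WT vehicle wounds, cilengitide-treated Col5a1CKO wounds had 9 positive estimates, and Ltbp1 (1.36, SE 0.40, adjusted p = 0.049) and Ltbp2 (2.63, SE 0.75, adjusted p = 0.0452) were called, beside 5.15% of 15514 genes called higher and 3.43% lower. Tgfb1 (0.94, adjusted p = 0.0375) and Tgfbr1 (0.86, adjusted p = 0.0206) passed below 2-fold, beside 9.53% of genes higher without the limit on fold, and Smad7 did not pass (0.26, adjusted p = 0.446). In Tgfb1, Tgfb2, Tgfbr1 and Ltbp2 the groups did not overlap, 4 of 9 genes, beside 14.5% of all genes. These comparisons share wounds with the 2 before. The Ltbp1 call was lost in 6 of 8 fits that left out a wound (adjusted p 0.0719 to 0.119), and so was the Ltbp2 call (adjusted p 0.0529 to 0.104). Neither gene was called when WT wound 3 or 4 or cilengitide wound 2, 3 or 4 was left out.

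Injection of WT fibroblasts came with no called change among the 9 genes. Over all wounds of day 14, 0 of the 9 passed against Col5a1CKO wounds without fibroblasts, beside 0.0% of 15659 genes called in either direction (edgeR, 3 against 7). At an unadjusted p under 0.05 there were 3 (Tgfbr1, Tgfbr3 and Ltbp1), all lower, beside 11.5% of all genes lower, and DESeq2 called 0, beside 0.0993% of its genes. The injected wounds all lie in the upper library set, and there the 9 estimates ran from -0.38 (SE 0.61, Ltbp2) to 0.15 (SE 0.35, Tgfb1), against -1.40 (Ltbp1) to 0.81 (Tgfb1) over all wounds. Tgfb1 was 237, 214 and 194 CPM in the injected wounds, beside 267 and 135 CPM in Col5a1CKO wounds f and g. Ltbp1 was 40.7, 49.3 and 57.0 CPM, beside 82.5 and 45.8 CPM.

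Against WT wounds the injected Col5a1CKO wounds had more Tgfb1 (2.46, SE 0.45, adjusted p = 0.0085) and Ltbp2 (4.08, SE 1.05, adjusted p = 0.0434), 2 of the 9 genes, beside 3.77% of 15317 genes called higher and 2.06% lower. In these genes and in Tgfb3 the groups did not overlap, 3 of 9 genes, beside 9.91% of all genes. Within the upper set 6 of the 9 were called: Tgfb1 (1.95), Tgfb2 (1.67), Tgfb3 (1.71), Tgfbr3 (1.50), Ltbp1 (2.06) and Ltbp2 (3.30), beside 19.8% of 15132 genes called higher in that fit. With each of the 3 injected wounds left out in turn the Ltbp2 call over all wounds was lost (adjusted p 0.0948 to 0.199). The WT wounds of the upper set had Y-linked RNA and the injected wounds Xist, and both comparisons share wounds with the genotype comparison of day 14. Keratinocyte markers summed to 8238 to 20601 CPM in the injected wounds, and leukocyte markers had a median sum of 1115 CPM and a highest of 1135 CPM. Fibroblast markers summed to 807 to 1230 CPM (median 1151) in the injected wounds. In Col5a1CKO wounds without fibroblasts, of both library sets, the sum was 1137 to 6617 CPM (median 4237). The part of these cells was not tested.

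The balance between the ligands was read on a per-length scale, as the share of each gene in the summed RPKM (counts scaled to library size and transcript length) of the 3. These shares are descriptions without a test, and those of the cilengitide cohort use the gene lengths of the first table. Tgfb1 had the largest share in every wound but WT wound b of day 14, with group medians of 54.9% to 78.3%. In WT wounds of day 14 the shares had a wide range, with 34.7% to 81.4% for Tgfb1, 4.72% to 16.1% for Tgfb2 and 11.5% to 60.6% for Tgfb3. The Tgfb1 share moved with the library set there, at 34.7% to 58.4% in WT wounds a to d and 70.8% to 81.4% in e to g. At day 19, with all wounds in the upper set, WT wounds had 6.77% to 7.90% of Tgfb2 and 71.3% to 76.5% of Tgfb1. Col5a1CKO wounds of that day had 19.4% to 22.2% and 48.6% to 55.8%, without overlap. In the cilengitide cohort the median Tgfb1 share was 72.9% in WT with vehicle, 77.5% in Col5a1CKO with vehicle and 64.8% with cilengitide, and the ranges overlapped. Summed ligand RPKM was 20.3 to 53.6, 120.4 to 153 and 74.2 to 83.2 in the same order, and those ranges did not.

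**Figure D5:**
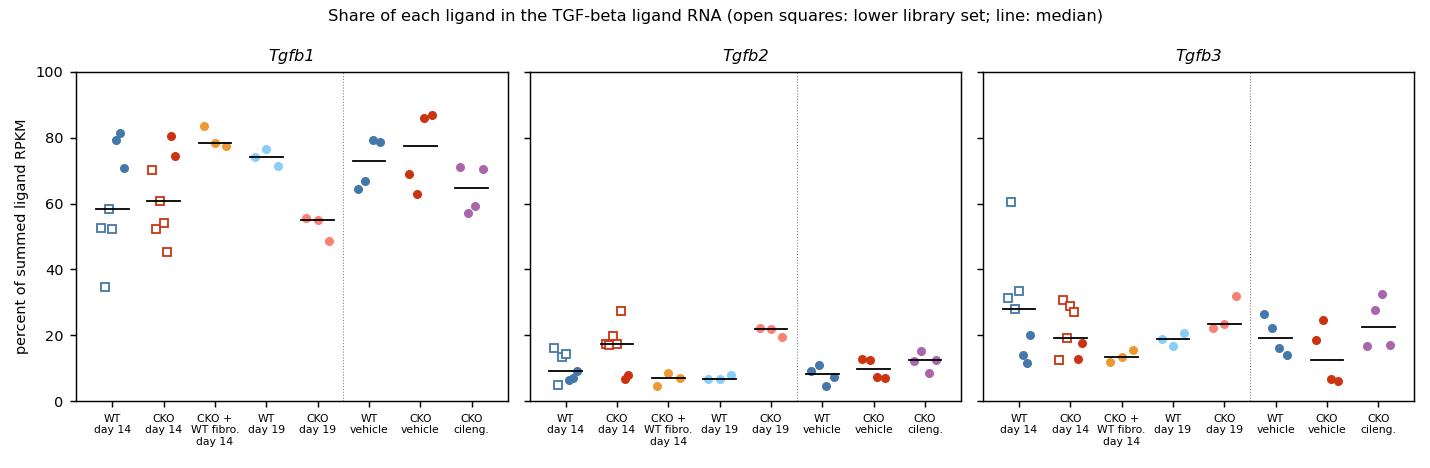
Share of each ligand in the summed RPKM of Tgfb1, Tgfb2 and Tgfb3, in percent, for every wound by group. Points are wounds, open squares the lower library set and lines medians. At day 19 the Tgfb2 share lies at 6.77% to 7.90% in WT and at 19.4% to 22.2% in Col5a1CKO wounds.

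Among the receptors, per length, Tgfbr2 had the highest median RPKM in every group, from 29.0 (WT, day 14) to 80.4 (WT, day 19), where Tgfbr1 was 7.13 and 6.15. The Tgfbr3 median was 3.85 in WT and 14.1 in Col5a1CKO wounds at day 14, and 21.2 and 20.9 at day 19. RPKM carry no TMM factor, and on that scale the Tgfbr3 groups of day 19 overlapped. Ltbp2 was the lowest of the 9 in WT wounds of each day and cohort, with medians of 0.0654, 1.38 and 0.559 RPKM, beside 3.95, 5.76 and 3.45 for Ltbp1. In Col5a1CKO wounds the Ltbp2 median reached 10.3 RPKM at day 19, beside 15.7 for Ltbp1.

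The rest of the pathway was read from 6 lists of 59 other genes. At day 14, 17 were called higher and 3 lower in Col5a1CKO wounds, and with vehicle 23 and 3, beside 5.57% and 17.5% of all genes called higher. The shares called lower were 2.71% and 13.4%. Of 11 genes that activate latent ligand, 5 were higher at day 14 and 7 with vehicle. Thbs1, or thrombospondin 1, which frees the ligand from its propeptide, rose from a median of 140.4 to 1799 CPM at day 14 (log2 fold change 2.98, SE 0.72, adjusted p = 0.0189). With vehicle it rose from 123 to 4858 CPM (5.42, SE 0.88, adjusted p = 0.00248). Mmp9, a gelatinase, rose by 1.98 and 2.73 (adjusted p = 0.0413 and 0.0463). Of 14 genes that TGF-beta is known to induce or repress, 7 were higher and 1 lower at day 14, and 9 and 1 with vehicle. Il11, a fibroblast cytokine induced by TGF-beta, rose by 4.33 and 4.73 (adjusted p = 0.0293 and 0.00145), and Tnc, tenascin C, by 3.01 and 3.21 (adjusted p = 0.0135 and 0.0198). The size of the Il11 change depends on few WT reads, with 0 to 3.07 CPM in WT at day 14 and 0.572 to 0.923 CPM with vehicle. At day 14 its Col5a1CKO range of 1.72 to 53.0 CPM overlapped that of WT. Cdkn2b, a cell cycle inhibitor that TGF-beta induces in keratinocytes, fell, with log2 fold changes of -1.46 and -2.11 (adjusted p = 0.0373 and 0.000694).

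Among 9 further receptors and co-receptors 2 were higher and 1 lower in either comparison. Of all genes 5.57% were called higher and 2.71% lower at day 14, and 17.5% and 13.4% with vehicle. With vehicle the counts of receptors, of transducers (1 of 6) and of latency genes (1 of 7) lay near those shares. Eng, endoglin, and Acvrl1, its endothelial partner kinase, rose by 1.55 and 1.51 at day 14 (adjusted p = 0.00663 and 0.0257), and by 2.02 and 3.23 with vehicle (adjusted p = 0.0232 and 0.00465). Cd109, a co-receptor of keratinocytes that dampens signalling, fell, with log2 fold changes of -1.25 and -1.44 (adjusted p = 0.0122 and 0.00177). Of 6 transducers only Zfyve9, the anchor that brings SMAD proteins to the receptor, was called in either comparison, lower with -1.42 and -1.97 (adjusted p = 0.0195 and 0.000456). In the latency list of 7 genes, Emilin1, which slows the processing of the TGF-beta precursor (1.81, adjusted p = 0.0187), and Lrrc33, which holds latent ligand on myeloid cells (1.18, adjusted p = 0.0249), rose at day 14, and Lrrc33 with vehicle (2.15, adjusted p = 0.000925). Of 12 inhibitors, Bgn, biglycan, rose at day 14 (1.52, adjusted p = 0.0490), and 4 rose with vehicle, led by Dcn, decorin (2.62, adjusted p = 0.00646) and Tgif1, a SMAD co-repressor (2.29, adjusted p = 0.0140).

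With cilengitide 2 of the 59 genes were higher and 5 lower than in Col5a1CKO vehicle wounds, beside 6.48% and 6.59% of all genes. These counts lay near the shares over all genes, so the genes named next do not set the lists apart. Thbs1 fell by 2.85 (SE 0.73, adjusted p = 0.0269) to a median of 612 CPM. Itgb3, the beta subunit of the drug's target, fell by 1.09 (SE 0.27, adjusted p = 0.0258), Acvrl1 by 2.00 (adjusted p = 0.0220), Il11 by 2.70 (adjusted p = 0.0189) and Lrrc33 by 1.13 (adjusted p = 0.00331). Zfyve9 and Cdkn2b rose by 1.14 and 1.63 (adjusted p = 0.00217 and 0.00667). Against WT vehicle wounds 13 of the 59 were called higher and 0 lower, beside 5.15% and 3.43% of all genes. Among the 13 were Thbs1 (2.62, adjusted p = 0.0217), Lrrc33 (1.05, adjusted p = 0.0209), Acvrl1 (1.28, adjusted p = 0.0429), Tagln (2.15, adjusted p = 0.0478), Dcn (1.47, adjusted p = 0.0274), Pmepa1 (1.28, adjusted p = 0.0278) and Mmp2 (1.75, adjusted p = 0.0455). These comparisons share wounds with the genotype comparison.

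The same lists held no called gene at day 19 and none after fibroblast injection, beside 0.0198% and 0.0% of all genes called higher. Injected wounds had 2 of the 59 genes higher and 2 lower than WT wounds, near the 3.77% and 2.06% of all genes, with Lrrc33 (2.00, adjusted p = 0.00270) and Eng (2.16, adjusted p = 0.000813) up and Cd109 (-1.58, adjusted p = 0.00889) and Acvr2a (-1.51, adjusted p = 0.0139), an activin receptor, down. From day 14 to day 19, 2 were higher and 3 lower in WT wounds, beside 1.5% and 4.25% of all genes, with Ltbp3 (1.97, adjusted p = 0.00356) and Eng (1.88, adjusted p = 0.00568) up and Cd109 (-1.62), Acvr2a (-1.39) and the repressor Skil (-1.47, adjusted p = 0.0439) down. In Col5a1CKO wounds 6 were higher and 0 lower, beside 1.87% and 3.85% of all genes, led by the latency genes Ltbp4 (1.91, adjusted p = 0.0198) and Lrrc32 (1.52, adjusted p = 0.0127) and by Ctgf (2.65, adjusted p = 0.0175) and Col1a1 (1.59, adjusted p = 0.0359). All day 19 and injected wounds lie in the upper library set, and the set was not separated from these list counts.

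The 9 genes did not vary as a block. Pearson's r of log2(CPM + 1) between pairs of them ran from -0.46 (Tgfbr1 and Smad7) to 0.91 (Tgfb2 and Ltbp2) over the 23 wounds of the first table, with a median of 0.57. Over the 12 wounds of the cilengitide cohort it ran from -0.14 (Tgfbr2 and Smad7) to 0.96 (Tgfb1 and Tgfbr1), with a median of 0.75. These are descriptions across wounds that share groups and library sets. Among 11493 genes with at least 5 CPM on average in both tables, the patterns most like that of Tgfb1 were Akna and Crlf2, where the lower r of the tables was 0.96 for both. For Tgfb2 they were Wnt2b and Itga5 (lower r 0.94 or more), for Tgfb3 Cd276 and Arhgef40 (0.92 or more), and for Tgfbr1 Rp2h and Bnip2 (0.95 or more). For Tgfbr2 they were Arsi and A430110N23Rik (0.92), for Tgfbr3 C1ra and C1qtnf1 (0.92), for Ltbp1 Svep1 and A430107O13Rik (0.93), for Ltbp2 Lrp1 and Inppl1 (0.91) and for Smad7 Sipa1l2 and Kdm6b (0.90).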

How the data were processed

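RNA from 35 punches of excisional wounds was sequenced. In both tables the deposited values are raw read counts per RefSeq transcript row, made by the authors. For the first table they aligned the reads with HISAT2 to mm9 and counted exons in SeqMonk, per the study's methods. Whether this also holds for the cilengitide cohort is not given in the sources used here. Rows with no symbol were left out (0.0492% of counts in the first table), and 0 columns belonged to other samples. For a symbol with several rows the row with the largest total was used.

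Groups were taken from the sample labels. The test was the robust quasi-likelihood test of edgeR 4.0.16 (R 4.3.3) on counts of the groups compared, after TMM scaling and filterByExpr at 10 counts, with Benjamini-Hochberg adjustment over all genes tested. A call is an adjusted p under 0.05 with at least 2-fold change, and SE is the log2 fold change divided by the root of F. CPM (with TMM factors) and RPKM (by library size and transcript length, without TMM) are for display, normalised within a table. DESeq2 1.42.0 and other settings were alternatives, and the procedure was tested on simulated data. Of simulated log2 fold changes of size 1, 6.12% were called at day 14, 2% at day 19 and 2% for injected against other Col5a1CKO wounds. Between the genotypes with vehicle it was 6.12%, and for cilengitide against vehicle 14.3%. At size 2 the shares were 54.2%, 46%, 42.9%, 66% and 58.3% in the same order. A gene that did not pass may thus still differ. The study's methods describe its replicates as biological.

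The text names the 9 genes in every comparison, Col5a1 as a check of genotype, up to 2 called genes per direction with the largest change from each pathway list, the 2 genes most like each of the 9 in pattern, and marker lists as summed CPM. The genes and lists were chosen with earlier results of these data known. One gene that this rule names is not reported here.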

Additional observations from a re-analysis of the deposited data

Results flagged for a closer look

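Of 45 groups of 4 or more wounds, taken gene by gene over the 9 genes, 2 held a wound far from the rest by Dixon's test of the gap, which chance alone would mark in about 1 of 20 groups. Tgfbr2 was 658 CPM in Col5a1CKO wound b of day 14, where the other 6 wounds had 206 to 311 CPM. Ltbp2 was 3.65 CPM in WT wound g of day 14, where the other 6 had 0 to 1.51 CPM.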

How the results depend on the processing

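The counts are of the 9 genes called. The genotype result at day 14 was 6 of 9 as reported and 3 at 3-fold, and with vehicle 7 and 3. At 3-fold 455 of 14367 genes were called higher at day 14 and 1937 of 15434 with vehicle. At day 19 DESeq2 gave 2 in place of 0. Cilengitide against vehicle gave 1 as reported, 0 at 3-fold, and 2 with no minimum fold, with DESeq2, by library size only and with all groups in one fit. Cilengitide against WT gave 2 as reported, 4 with no minimum fold, 1 at 3-fold, 5 with DESeq2, 0 with all genes of at least 1 count and 1 with all groups in one fit. For WT wounds between the days the count was 0 as reported, 2 with DESeq2, 3 by library size only, 2 with all groups in one fit, 2 with the library set as a covariate and 3 in the upper set alone. Of all genes 719 of 15180 were called higher by library size only, 940 of 16044 in one fit and 830 of 15180 with the covariate. For Col5a1CKO wounds between the days it was 0 as reported, and 1 with no minimum fold or with DESeq2. Injected wounds against WT gave 2 as reported, 4 with the set as a covariate and 6 in the upper set alone. Of all genes 1535 of 15317 were called higher with that covariate and 2999 of 15132 in the upper set alone. The causes were not tested.

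Leaving out 1 wound at a time gave 3 to 6 calls at day 14 (3 without Col5a1CKO wound a or c), 0 to 3 at day 19 (3 without WT wound c), 5 to 7 with vehicle, 1 to 2 for cilengitide against vehicle (2 without Col5a1CKO vehicle wound 2) and 0 to 3 for cilengitide against WT (0 without WT vehicle wound 3 or 4 or cilengitide wound 2, 3 or 4). It gave 1 for injected wounds against WT without any injected wound in turn, and 0 to 1 for WT between the days, where Tgfbr2 (1.39, adjusted p = 0.0490) was called without WT wound b of day 19. The other counts stayed at 0. Without WT wound c of day 19, 412 of 15468 genes were called higher and 600 lower, beside 3 and 0 as reported. Without WT wound b of day 19, 273 of 15412 genes were called higher in WT between the days.

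No label says that a replicate letter marks a shared animal or batch. The deviations from the group means of wounds with the same letter had r from -0.46 to 0.57 for the genotypes at day 14 (1 of 7 wounds was most like its own letter), -0.43 to -0.32 at day 19, -0.20 to 0.41 for injected against other Col5a1CKO wounds and 0.018 to 0.39 for injected wounds against WT, so the letters were not taken as pairs. In the last comparison, with the library set mean also removed, r was 0.11 to 0.52 and 2 of 3 wounds were most like their own letter, a hint from the data and not the design. The replicate block gave 6 at day 14, 0 at day 19, 3 for injected against other Col5a1CKO wounds (0 as reported) and 4 for injected wounds against WT (2 as reported). Of all genes it called 774 of 15932 higher and 543 lower at day 14, and 0 and 7 of 15579 at day 19. For injected against other Col5a1CKO wounds it called 1417 of 15579 higher and 1114 lower (0 and 0 as reported). For injected wounds against WT it called 1477 of 15155 higher and 1693 lower. Under the replicate block the estimates against WT were -0.056 for Tgfbr2, -0.033 for Tgfbr3 and -0.27 for Ltbp1, opposite to those reported. No paired analysis was possible in the cilengitide cohort because the numbers in its sample titles are all different and no label ties their runs to a litter, batch or day, nor between the days, where no label ties the letters of the days together.

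Estimates that turned in sign belonged to genes that were not called. At day 19 Smad7 was -0.079 by library size only, and Tgfbr2 ran from -0.12 to 0.87 over the wounds left out. For injected against other Col5a1CKO wounds, the upper set gave 0.0059 for Tgfb2 and 0.030 for Tgfbr1, the set as a covariate gave -0.042 for Tgfb3 and -0.028 for Smad7, and Tgfb3 ran from -0.030 to 0.067 over the wounds left out. For injected wounds against WT, Tgfbr1 was 0.012 by library size only, 0.65 with the covariate and 0.64 in the upper set. Between the days, the covariate and the upper set gave 0.31 and 0.31 for Tgfbr1 and -0.22 and -0.22 for Smad7 in WT. In Col5a1CKO they gave -0.64 and -0.59 for Tgfb1 and -0.41 and -0.34 for Smad7, the upper set gave 0.037 for Tgfbr1, and Tgfb1 ran from -0.040 to 0.29 over the wounds left out. For the difference between the days, library size only gave -0.12 for Tgfb2 and -0.29 for Tgfb3, and the upper set -0.47 for Tgfb3. Over the wounds left out there, Tgfb3 ran from -0.17 to 0.66, Tgfbr2 from -0.73 to 0.26, Ltbp1 from -0.86 to 0.12 and Smad7 from -0.33 to 0.22. For cilengitide against vehicle, Tgfb3 ran from -0.29 to 0.18, Tgfbr2 from -0.10 to 0.41 and Ltbp1 from -0.37 to 0.14. By library size only the median log2 fold change of all genes was 0.13 at day 14 (-0.032 as reported) and -0.39 at day 19 (-0.0096 as reported).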
